A study of Rattus norvegicus with 2 samples.

Results

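The 9 genes described here store, take up, export or sense iron in the cell. They are the ferritin genes Fth1 and Ftl1, the exporter gene Slc40a1, the uptake genes Tfrc, Slc11a2 and Steap3, the sensor genes Ireb2 and Aco1, and Ncoa4, which serves ferritin breakdown. They were chosen by name, as the non-control probes that carry 1 of these 9 gene names. No value entered that rule, although earlier results of these data were known when it was set. The arrays hold 15 such probes of 45598, and all 9 genes were among the 13062 genes measured on both arrays.

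The cells were IEC6, an established line of rat origin that derives from the crypts of the small intestine and is used as a model of gut epithelium. The treated group received sodium trisulfide (Na2S3), an inorganic polysulfide, for 60 min. The control group received water for 60 min. The sample label and the design text state 100 µM Na2S3, whereas the treatment protocol states 100 mM, and the files do not settle which is right. Each group is 1 sample on 1 single-colour Agilent array, so the differences are given without replicates, tests or p-values. The ± given with a ratio is the spot error, an SD estimated from repeat spots of similar signal on the same arrays, which does not cover differences between cultures.

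Iron enters most cells bound to transferrin, through the transferrin receptor, is reduced in the endosome and leaves it through a metal transporter. Iron not in use is kept in ferritin shells of heavy and light chains, and ferroportin is the known exporter of iron from the cell. Iron regulatory proteins bind RNA hairpins called iron-responsive elements when iron is scarce, which blocks translation of ferritin and protects the transferrin receptor mRNA. The antioxidant factor NRF2 and the repressor BACH1 act on the transcription of the ferritin and ferroportin genes. An array reads mRNA levels and not translation.

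The probes decide what these values mean for the exporter and the ferritins, so stretches of 30 bases of the 60-base probes are shown from the files, 5′ to 3′. The first pair shows the probes of Slc40a1, which share no position, with the letters AATAAA in capitals. These letters are the most common polyadenylation signal, and 9.04% of all non-control probes hold them. The probes lie at chr9:44978571-44978630 and chr9:44977923-44977982 in rn4, with starts 648 bases apart, and the files write both in descending order.
Slc40a1, brighter probe: ctacagaattccAATAAAtgcctgcacttt
Slc40a1, dimmer probe: cagtacagaaggacttaaagcatgttattg

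The second pair shows that the Fth1 probes are near copies of the same site on chromosome 1, at chr1:212432641-212432701 for the brighter and chr1:212432648-212432709 for the dimmer probe. The capital marks the base that differs in this stretch, G33A, counted from 1 at the 5′ end of the dimmer probe, with the dimmer probe's base first.
Fth1, dimmer probe: ttttctataagttgcaccaGaacatctgct
Fth1, brighter probe: ttttctataagttgcaccaAaacatctgct

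The Ftl1 probes also read nearly the same letters, with 53 bases in a row in common. The files place the brighter one at chr1:95929253-95929312 and the dimmer one at chr13:86733054-86733113. The stretch shown holds AATAAA in capitals. Copies of one site are not independent readings of a gene, and the ferritin genes have near-identical copies elsewhere in the genome that such probes could also read.
Ftl1, brighter probe: tcttggaccaagtaaaAATAAAgctttttg

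No gene of the 9 was 2-fold or 1.5-fold different between the arrays at its brightest probe (0 of 9 at each size). Of all 13062 measured genes, 1.56% were at least 2-fold different (0.942% higher and 0.62% lower in the Na2S3 array). At 1.5-fold this was 6.38% (2.96% higher and 3.41% lower). The ratio was below 0, that is, lower in the Na2S3 array, for 8 of the 9, against 56.6% of all measured genes. The 8 include Tfrc at -0.01 ± 0.05. With scaling to spike-in probes, lowess centring or raw mean signal, 7 were below 0. Fth1 and Ftl1 also count among the 8, and they lie in the brightest range, where 95.5% of genes had a ratio below 0. The median log2 ratio was -0.25 for the 9 genes and -0.04 for all measured genes. With quantile normalization and with the deposited values these medians were -0.07 and 0.01, and with lowess centring -0.10 and 0.01. Slc40a1 had the lowest ratio of the 9, followed by Ncoa4 and the ferritin genes, while Tfrc and Aco1 were closest to 0. Slc40a1 and Ncoa4 kept the first places with quantile normalization, but there Fth1 and Ftl1 (both -0.04) were closer to 0 than Aco1 (0.07) and less low than Steap3 (-0.23) and Slc11a2 (-0.15). Fewer copies per cell and fewer cells that hold the transcript cannot be told apart in such bulk RNA.

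**Figure D1:**
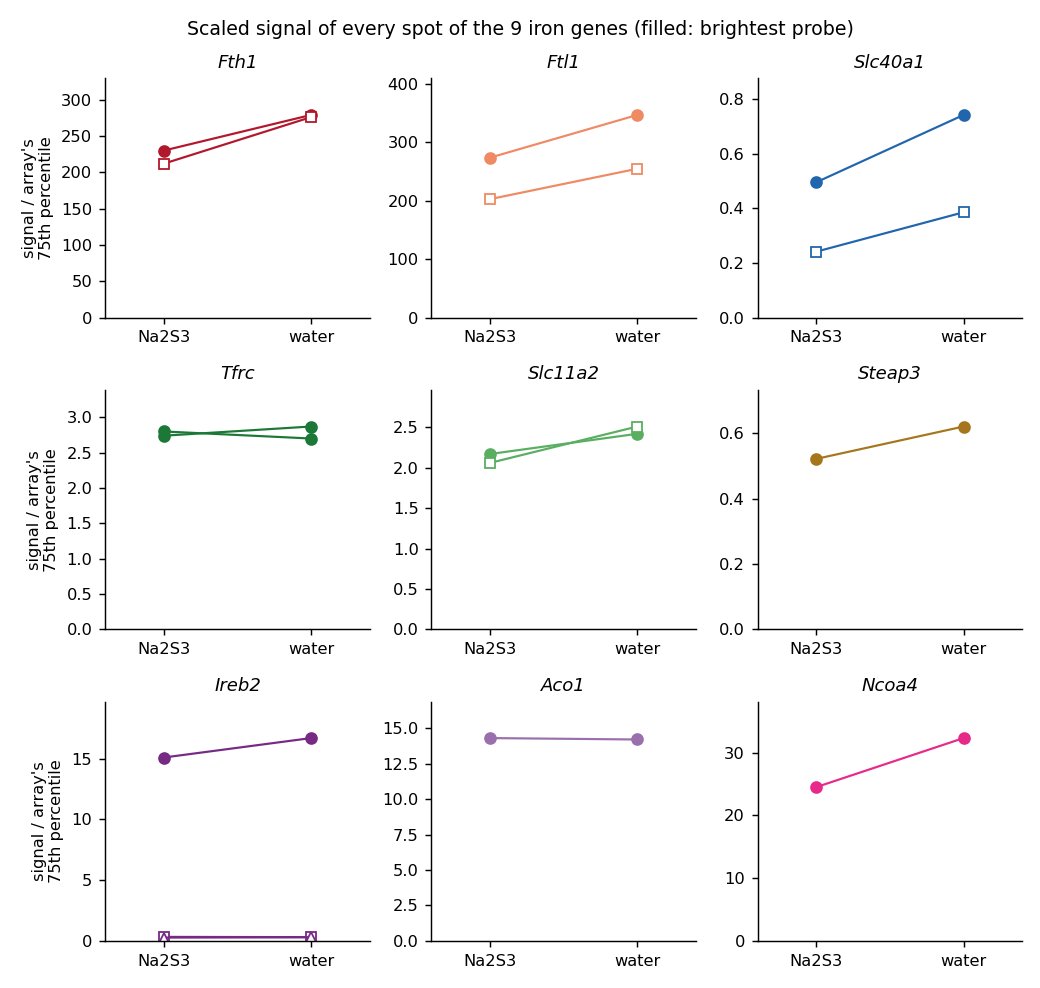
Scaled signal of every spot of the 9 genes on the Na2S3 array (left in each panel) and the water array (right), as a multiple of the array's 75th percentile, on linear axes that start at 0, with filled symbols for the brightest probe and open symbols for the others. Lines join the values of a spot, and Slc40a1 lies lower in the Na2S3 array at both probes, and the spots of Tfrc cross.

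Slc40a1 encodes ferroportin, the iron exporter. Its brighter probe had a signal of 0.496 times the 75th percentile in the Na2S3 array, against 0.742 times in the water array. Its dimmer probe had 0.242 times in the Na2S3 array, against 0.386 times in the water array. Both probes were thus lower in the Na2S3 array, although they read different sites. The log2 ratios were -0.58 ± 0.10 and -0.68 ± 0.16, and the dimmer probe alone passed 1.5-fold. Of the 13062 genes, 454 (3.48%) had a lower ratio than Slc40a1. Each probe has 1 spot. Of 3058 genes with a mean signal from 256 to 1024 units, where its brighter probe lies near the lower edge, the median log2 ratio was 0.01 with an SD of 0.31. Of 2429 genes from 64 to 256 units, where its dimmer probe lies, the median was -0.05 with an SD of 0.45. Across the processing alternatives the brighter probe ranged from -0.58 to -0.45 and the dimmer from -0.68 to -0.49.

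The ferritin genes Fth1 and Ftl1 encode the heavy chain, which oxidises iron, and the light chain, which helps to form its mineral core. The brighter Fth1 probe read 230 times the 75th percentile in the Na2S3 array, against 279 times in the water array. The dimmer Fth1 probe read 212 times in the Na2S3 array, against 276 times in the water array. Their log2 ratios of -0.28 ± 0.06 and -0.38 ± 0.06 were both below 0 by more than the spot error. For Ftl1, the brighter probe read 274 times in the Na2S3 array, against 347 times in the water array. The dimmer Ftl1 probe read 203 times in the Na2S3 array, against 255 times in the water array, and the log2 ratios were -0.34 ± 0.06 and -0.33 ± 0.06.

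These low ferritin ratios were shared by most genes of similar brightness. Of 156 genes with a mean signal of at least 65536 units, 95.5% had a ratio below 0, with a median of -0.22 and an SD of 0.11. After quantile normalization, and in the deposited table, the brighter probes of Fth1 and Ftl1 both stood at -0.04, and with lowess centring on signal at -0.05 and -0.10. Both ratios were below 0 in all 10 alternatives, but their size depended on the scaling.

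**Figure D2:**
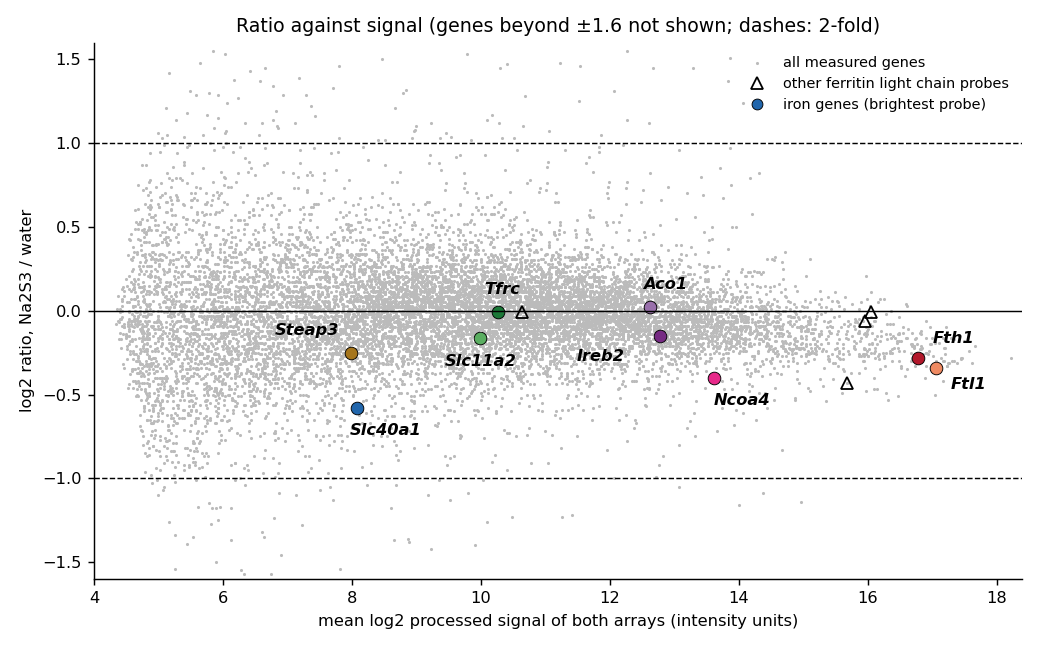
Log2 ratio (Na2S3 over water) against the mean log2 processed signal of both arrays for all measured genes (grey), the brightest probe of the 9 genes (coloured) and other ferritin light chain probes (triangles). The grey cloud bends below 0 at the highest signals, where Fth1 and Ftl1 lie at -0.28 and -0.34, and dashed lines mark 2-fold.

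Other probes described as ferritin light chain gave different values, and they were looked up after the members' values were seen. A probe filed under LOC100360087, which shares 53 bases in a row with an Ftl1 probe, had 48654 units in the Na2S3 array and 56558 units in the water array, a log2 ratio of -0.43 ± 0.06. A probe at chr1:95930438-95930497, which starts 1185 bases from the Ftl1 probe on that chromosome, had 72980 units in the Na2S3 array and 63660 units in the water array. Scaled, its log2 ratio was -0.01 ± 0.02 over 10 spots. A further one on chromosome 6, also with 10 spots, had -0.06 ± 0.02. The probes with the letters of Ftl1 were thus lower in the Na2S3 array, and these bright probes with other letters were near 0. After quantile normalization the Ftl1 probes stood at -0.04 and -0.11 and that of LOC100360087 at -0.26, and the probes with other letters at 0.19 and 0.13. Which transcripts each of them reads was not tested. Of 11 further probes described as ferritin in all, 5 were well above background on both arrays. Among those was a heavy chain probe on chromosome X, with 2582 units in the Na2S3 array and 2108 units in the water array. Its log2 ratio was 0.09 ± 0.10, and it shares at most 6 bases in a row with an Fth1 probe. A dimmer light chain probe on chromosome 1 had -0.01 ± 0.08.

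Tfrc, Slc11a2 and Steap3 carry the uptake route. Tfrc encodes the transferrin receptor, and its probe was spotted 2 times. Its spots had 2.74 and 2.80 times the 75th percentile in the Na2S3 array, against 2.87 and 2.70 times in the water array. The spots overlapped between the arrays, and the log2 ratio was -0.01 ± 0.05. Slc11a2 encodes DMT1, which carries ferrous iron out of the endosome and, in the gut, in from the lumen. Its probes have different names but the same 60 bases, so they are repeat spots of 1 sequence. They read 2.17 and 2.06 times in the Na2S3 array, against 2.42 and 2.51 times in the water array. The log2 ratios were -0.16 ± 0.08 and -0.28 ± 0.08. Before scaling, the spots overlapped between the arrays, with 1037 and 985 units in the Na2S3 array and 1001 and 1036 units in the water array. With normexp background correction the same spots stood at -0.05 and -0.21. Steap3 encodes the endosomal ferrireductase, and its 1 spot read 0.522 times in the Na2S3 array, against 0.621 times in the water array. Its log2 ratio of -0.25 ± 0.16 rests on that spot.

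Ireb2 and Aco1 encode the iron regulatory proteins IRP2 and IRP1, of which IRP1 doubles as the cytosolic aconitase when it holds an iron-sulfur cluster. The brightest Ireb2 probe read 15.1 times in the Na2S3 array, against 16.7 times in the water array, a log2 ratio of -0.15 ± 0.09. Its dimmer probes gave 0.09 ± 0.16 and -0.16 ± 0.19, so the 3 probes did not share a sign. Aco1 read 14.3 times in the Na2S3 array, against 14.2 times in the water array, with a log2 ratio of 0.02 ± 0.09. It was the only one of the 9 with a ratio above 0, and neither sensor gene differed by as much as 2 spot errors at its brightest probe.

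Ncoa4 encodes the receptor that carries ferritin to the autophagosome for iron release. Its 1 spot read 24.5 times in the Na2S3 array, against 32.3 times in the water array, a log2 ratio of -0.40 ± 0.07. Of all measured genes, 8.04% had a lower ratio. The 1991 genes with a mean signal from 4096 to 16384 units had a median of -0.05 and an SD of 0.23. Its ratio stayed between -0.40 and -0.30 in every alternative tried.

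**Figure D3:**
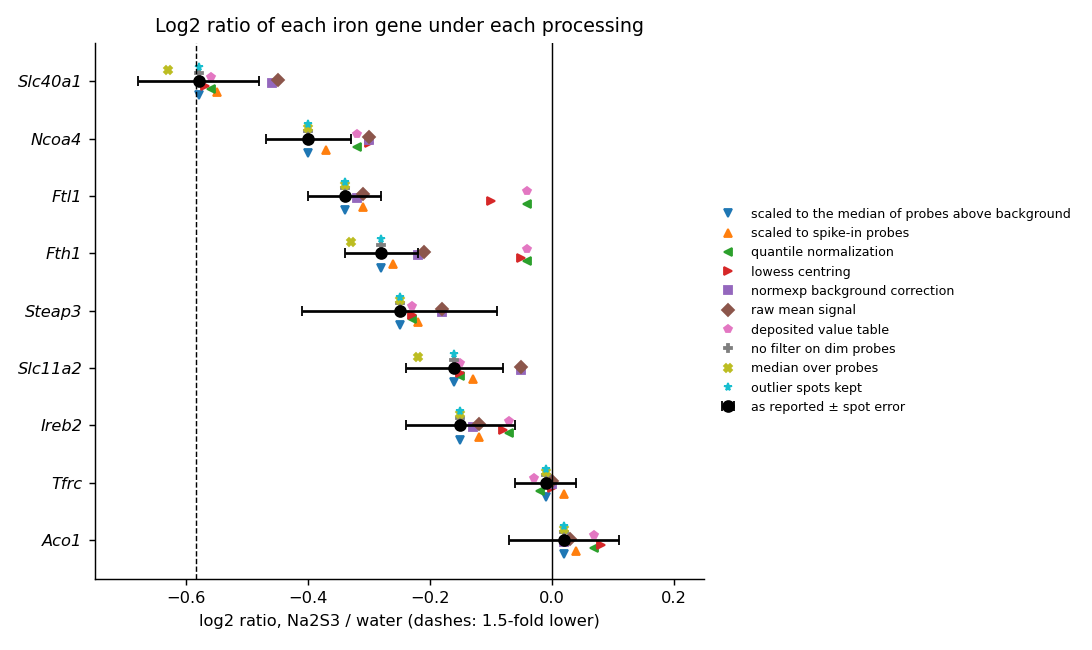
Log2 ratio (Na2S3 over water) of the 9 genes as reported (black, with the spot error as the bar) and under each of 10 processing alternatives (coloured symbols), with a dashed line at 1.5-fold lower. Fth1 and Ftl1 move to between -0.10 and -0.04 under quantile normalization, lowess centring and in the deposited table, while Slc40a1 stays lowest in all 10.

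Other iron genes were read from lists chosen by function, with earlier results of these data known. Of all measured genes, 6.38% passed 1.5-fold and 1.56% passed 2-fold. A count of 0 in lists as short as these therefore does not set them apart. Of 18 measured genes of iron uptake, transport and systemic control, 0 passed 1.5-fold either way at the brightest probe, and the median log2 ratio was -0.16. Hfe, whose product binds the transferrin receptor, had -0.41 ± 0.19, and -0.62 at its other probe, which is past 1.5-fold. Its brightest probe is dim, with 74.2 units in the Na2S3 array and 85.2 units in the water array. That probe stood at -0.30 with normexp and -0.24 with raw mean signal. Pcbp1, an iron chaperone gene, had -0.30 ± 0.02 (its 3 probes ran from -0.30 to -0.09). Bmp6, a ligand that drives hepcidin in the liver, and Tmprss6, a protease that restrains it, both had -0.29, with spot errors of 0.08 and 0.35. Hamp, the hepcidin gene, and Tfr2, Heph, Hjv, Lcn2 and Ltf were too dim on both arrays to be called well above background. Of 8 measured genes, apart from the members, known for an iron-responsive element, 0 passed 1.5-fold. Epas1, which is also counted among the 18 above, had -0.18, App -0.12 and Cdc42bpa 0.12. The autophagy genes that serve ferritin breakdown had 0 of 12 past 1.5-fold, with Map1lc3b at -0.25, Gabarap at -0.21, Map1lc3a at -0.17 and Tax1bp1 at 0.09. Pcbp1, App, Map1lc3b, Gabarap and Map1lc3a lie among the 626 genes with a mean signal from 16384 to 65536 units. Of those 626, 80.2% had a ratio below 0, with a median of -0.12.

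The heme lists held 1 gene past 2-fold. Hmox1 encodes heme oxygenase 1, which frees iron from heme, and it read 2.96 times in the Na2S3 array, against 1.46 times in the water array. Its log2 ratio was 1.02 ± 0.08, and 0.95 with normexp background correction and 0.94 with raw mean signal, which ends the 2-fold call. Bach1, the heme-sensing repressor gene, had 0.61 ± 0.19 at its brighter and 0.84 at its other probe, but 0.28 at the brighter with normexp, which is short of 1.5-fold. Flvcr2 had -0.30 and Blvra, a biliverdin reductase gene, -0.16. Of the 12 measured genes of heme breakdown and transport, Hmox1 alone passed 2-fold, against 1.56% of all measured genes, and the median was -0.06. Of 11 measured heme synthesis genes 0 passed 1.5-fold, and Alas1, the rate-limiting enzyme outside red cells, had the highest ratio at 0.44 ± 0.09. Urod had -0.25, Alad -0.18 and Clpx 0.18. Urod lies in the range from 16384 to 65536 units, where the median of all genes was -0.12.

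Of 20 measured genes of mitochondrial iron and iron-sulfur cluster assembly, 0 passed 1.5-fold. Cisd2 had -0.51 ± 0.10, and Fdxr and Iscu, the cluster scaffold gene, both -0.22. Ftmt, which encodes mitochondrial ferritin, was well above background in the water array alone. Its 1 spot had 4.63 units in the Na2S3 array and 96.9 units in the water array, at least 5.45-fold lower with the Na2S3 array set at the lowest signal well above background there. That bound rests on 1 dim spot and has no spot error. Large differences at dim probes were common. With no filter on them, 1545 genes were at least 2-fold lower, against 81 as reported. The ferroptosis list, too, was chosen with earlier results of these data known, so its count cannot be read as enrichment. Of 11 measured ferroptosis genes, 2 passed 2-fold, both higher in the Na2S3 array, as were 0.942% of all measured genes. Those were Chac1, which degrades glutathione, at 2.93 ± 0.10 (2.49 with normexp) and Slc7a11, the cystine transporter gene, at 2.09 ± 0.19. Slc7a11 stood at 1.08 with normexp and 1.07 with raw mean signal. In the same list, Gpx4, which reduces lipid peroxides, had -0.27 ± 0.06 and Sat1 0.21 ± 0.08. Gpx4 also lies in the range from 16384 to 65536 units, where 80.2% of genes had a ratio below 0.

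**Figure D4:**
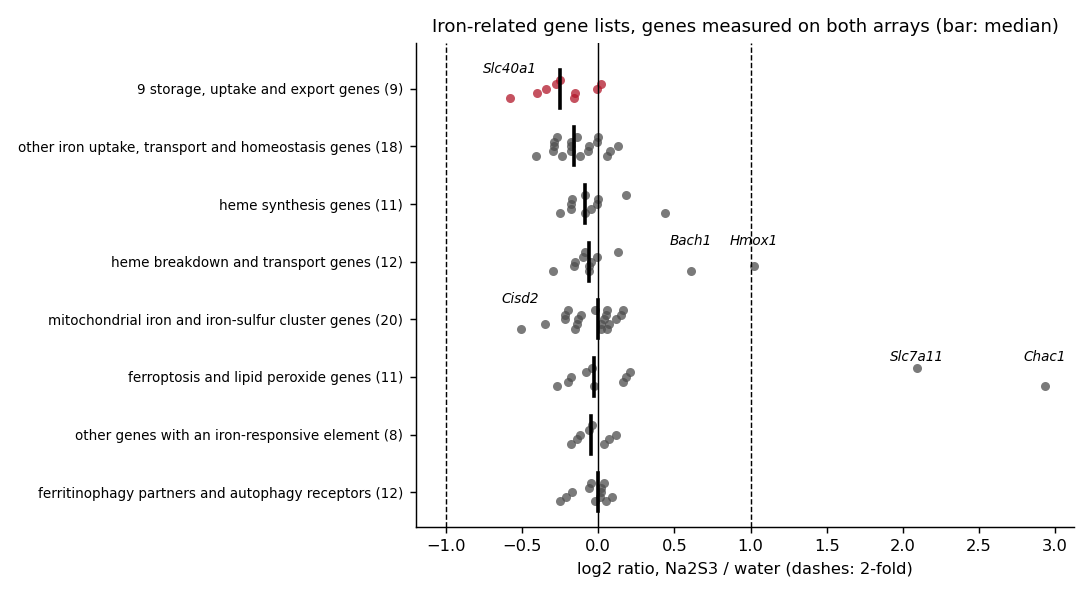
Log2 ratio (Na2S3 over water) of every gene measured on both arrays in the lists of iron-related genes, 1 point per gene, with the number of genes in brackets, a bar at the list's median and dashed lines at 2-fold. Hmox1, Slc7a11 and Chac1 lie past 2-fold, and none of the 9 storage, uptake and export genes does.

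Markers of cell types were read beside these values. Of 15 intestinal epithelial markers with a probe, 6 were measured, among them Cdh1, Krt8 and Cdx1, and 9 stayed under that mark on both arrays, including Vil1, Cdx2, Epcam and Lgr5. Of 10 fibroblast markers 8 were measured, with log2 ratios from -0.43 to 0.03 and a median of -0.25. Of these, Col1a1 (-0.24), S100a4 (-0.27) and Col3a1 (0.03) lie at 65536 units or more, where the median of all genes was -0.22. The part of these markers in the ratios of the iron genes was not tested. Of 8 immune markers 2 were measured, Cd68, a macrophage gene, at -0.27 ± 0.19 and Ptprc at -0.32 ± 0.35, while the macrophage genes Cd163, Adgre1, Csf1r and Marco were under it on both. Of 5 erythroid markers with a probe 1 was measured, Epor, with 157 units in the Na2S3 array and 121 units in the water array (log2 ratio 0.17), while Hbb, Klf1 and Alas2 were not well above background. Of 5 endothelial markers 3 were measured, Vwf at -0.35, Tek at -0.11 and Cdh5 at -0.02, with Pecam1 and Kdr too dim.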

How the data were processed

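Total RNA of IEC6 cells, 1 sample per group, was labelled with Cy3 and hybridised to 1 array each, per the labels' protocols. The scanner files hold spot intensity on a linear scale made with Agilent Feature Extraction. Its version is 10.7.1.1, per the file headers, and 9.5.1.1, per the submitters' processing notes. Spatial and multiplicative detrending were switched on for the processed signal, per the file headers, and the arrays' signals were still on their own scales. A further deposited table gives linear intensity with a median of 19.3 in each column. How it was normalized is not stated in the labels, so it served as an alternative. Its columns, once sorted, differed by at most 0.361 units. Its ratios for the members equalled those with quantile normalization, except for Tfrc (-0.03 against -0.02). It is therefore not an alternative independent of quantile normalization.

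Of 58717 non-control spots, those marked as outliers were left out (390 on the Na2S3 array, 448 on the water array), and 0 were saturated. The log2 signal was averaged over the spots of each of 45598 probes, and each array's 75th percentile (478 units on the Na2S3 array, 413 on the water array) was subtracted. A probe counted as well above background when more than 50% of its spots carried that mark. Genes were represented by their brightest probe well above background on both arrays. Names came from RefSeq accessions through a GRCr8 gene table for 21102 probes and from the files for 14750, and 9746 probes without a gene symbol did not enter gene counts. Positions are in rn4, as the files give them.

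With 1 array per group no test is possible, and precision is limited by that number. Genes were counted at 2-fold and at 1.5-fold. The spot error is the SD of the log2 ratio between repeat spots of 1957 probes, in bins of similar signal, divided by the square root of the number of spots. It covers neither culture nor labelling. The counting step was tested on simulated data. The members, lists and alternatives were chosen with earlier results of these data known. All 9 members are named, and of each other list every gene past 2-fold and the 4 genes with the largest ratio either way, except some that are not reported here. Background correction by normexp used limma 3.58.1 in R 4.3.3, and the remaining steps used Python 3.11.15 with statsmodels 0.14.6 for lowess.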

Additional observations from a re-analysis of the deposited data

How the results depend on the processing

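No gene of the 9 was 2-fold different under any of the 10 alternatives, and all but Tfrc kept the sign of their ratio. Tfrc ranged from -0.03 to 0.02. Of 90 values of the 9 genes under alternatives, 17 moved by more than the spot error. Scaling to the median of probes above background and keeping outlier spots left all 9 values as reported. So did lifting the filter on dim probes, which could not act because every probe of the 9 genes passed it. The deposited values were nearly those of quantile normalization. The 90 values are thus not independent of each other. The median over the 9 genes was -0.07 with quantile normalization, -0.07 with the deposited values and -0.10 with lowess centring, where the median of all genes was 0.01. With the median over probes, 1 gene, Slc40a1 (-0.63), passed 1.5-fold. The 204 genes past 2-fold and 833 past 1.5-fold became 92 and 346 with normexp, 86 and 315 with raw mean signal, and 2607 and 5128 with no filter on dim probes, where the share of higher genes among those past 2-fold was 40.7%, against 60.3% as reported. The cause of these moves was not tested. No paired analysis was possible because each group has 1 sample. Dim probes limit the precision, with a spot error up to 0.35 below 64 units.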

Other observations

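Promoter letters were searched in RefSeq promoter windows of GRCr8, from before each gene's start to just inside it, of which 8 belong to 7 of the 9 genes. Fth1 and Ftl1 have no entry there. The antioxidant response element letters TGACNNNGC, on both strands, occurred in the Ncoa4 window and in 12.1% of all 33469 windows. TGAGNNNGC occurred in 0 of the 7 genes and in 17.2% of all windows. The loop motif of the iron-responsive element with its upstream bulged C, on the transcript's strand, occurred in the Steap3 window and in 9.55% of all windows. These elements are RNA hairpins, and the windows hold little of each transcript. The search therefore cannot show which of the genes carry such an element.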
